A study of Mus musculus with 8 samples.

Results

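Renal stroma is the loose mesenchyme that surrounds the nephron progenitors, the ureteric bud and the vessels of the embryonic kidney, and 9 genes that regulate or mark it were followed here: Foxd1, Tcf21, Meis1, Meis2, Prrx1, Tbx18, Pdgfra, Pdgfrb and Penk. They were chosen as genes of cortical, medullary and ureteric stroma, and their probes were found through the RefSeq accession that the array gives for each probe. The 9 genes had 18 probes among 41174 non-control probes, and all 18 were among the 39520 probes bright enough to be tested. Of 17114 named genes tested, they are 9.

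The stroma descends largely from cells that express the forkhead factor Foxd1, and it gives rise to interstitial fibroblasts, pericytes, smooth muscle and renin cells. Stromal cells signal to the neighbouring progenitors and to the bud, and loss of Foxd1 or of the helix-loop-helix factor Tcf21 in mice leaves small kidneys with poorly branched buds. Mesenchyme around the ureter is marked by the T-box factor Tbx18, and the PDGF receptors take up growth signals in fibroblasts and in cells of the vessel wall.

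RNA came from whole kidneys dissected at E13.5 from embryos of a CD1 C57BL/6 mix, either wild type or labelled UB HDAC1,2-/-, where UB stands for the ureteric bud and both histone deacetylases are deleted there. By the labels the deletion thus lies outside the stroma, and all stromal transcripts were measured in RNA that also held bud, nephron progenitors, vessels and blood cells. Fewer cells of a type and less RNA per cell cannot be told apart in such RNA. Each of 4 biological replicates paired 1 mutant with 1 wild type RNA, 0.5 µg of each being labelled, and the pair was hybridised on 2 two-colour Agilent arrays with the dyes exchanged. The number of embryos behind each RNA and the driver of the deletion are not given in the sources used here.

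Every value below, unless it is called a signal, is a log2 ratio with the labelled mutant in the numerator and the labelled wild type in the denominator. It was taken from the scanner software's log ratio and averaged over the 2 dye orientations of a replicate. The direction of the labels is open. In the authors' deposited table, 416 of 496 entries equal the sign-turned mean of the scanner ratios within 0.01 (log2), 0 equal it as labelled, and 309 of 309 entries with a single probe have the opposite sign. That table states no direction. If its ratios have the mutant in the numerator, every sign below would turn. Hdac2, a deleted gene by the labels, stood at 0.60, 0.60, 0.74 and -0.61 in replicates 1 to 4 (mean 0.33 ± 0.63, SD, n = 4; limma's adjusted p = 0.757). Replicates 1 to 3 thus did not show the loss that their labels name, and replicate 4 was lower. The RNA also held tissue outside the bud, where by the labels the gene is not deleted, so Hdac2 cannot settle the direction. The position of this probe relative to the deleted part of Hdac2 is not given in the sources used here. The authors' deposited table of altered genes holds 0 entries for the 9 stroma genes.

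The share of probes well above background on an array was 81.7% to 95.8% for the labelled mutant and 78.9% to 97% for the labelled wild type, with 0 saturated spots. The kidney markers Pax2, Pax8, Six2, Wt1, Ret, Gdnf, Hoxd11 and Foxd1 were well above background on 8 of 8 arrays in both channels. Replicate 2 stood apart in its spread, with an SD over all probes of 0.65 against 0.23 to 0.28 in the others. Its own dye orientations correlated best, at 0.58 across probes against 0.22 to 0.46. For several probes and lists the values without it are given as well.

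None of the 18 stroma probes passed the adjusted threshold of 0.05 in limma, where 0.0177% of all probes passed (7 of 39520). At an unadjusted p under 0.05, 6 of the 18 probes were lower in the RNA labelled mutant and 0 were higher, against 2.86% of all probes lower and 3.15% higher. These 6 belong to 3 genes, with 3 probes of Prrx1, 2 of Meis1 and 1 of Meis2, and probes of a gene are not independent. Without replicate 2 the count was 7, where 4.1% of all probes were lower, and without replicate 3 it was 3, where 1.17% were. In 8 of 18 probes all 4 replicates lay below 0, as they did in 5.64% of all probes, and in 0 of 18 did all lie above it, as they did in 10.7%. Past 1.4-fold as well as p, 1 of the 18 was lower, a second Meis1 probe, against 1.21% of all probes.

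**Figure D1:**
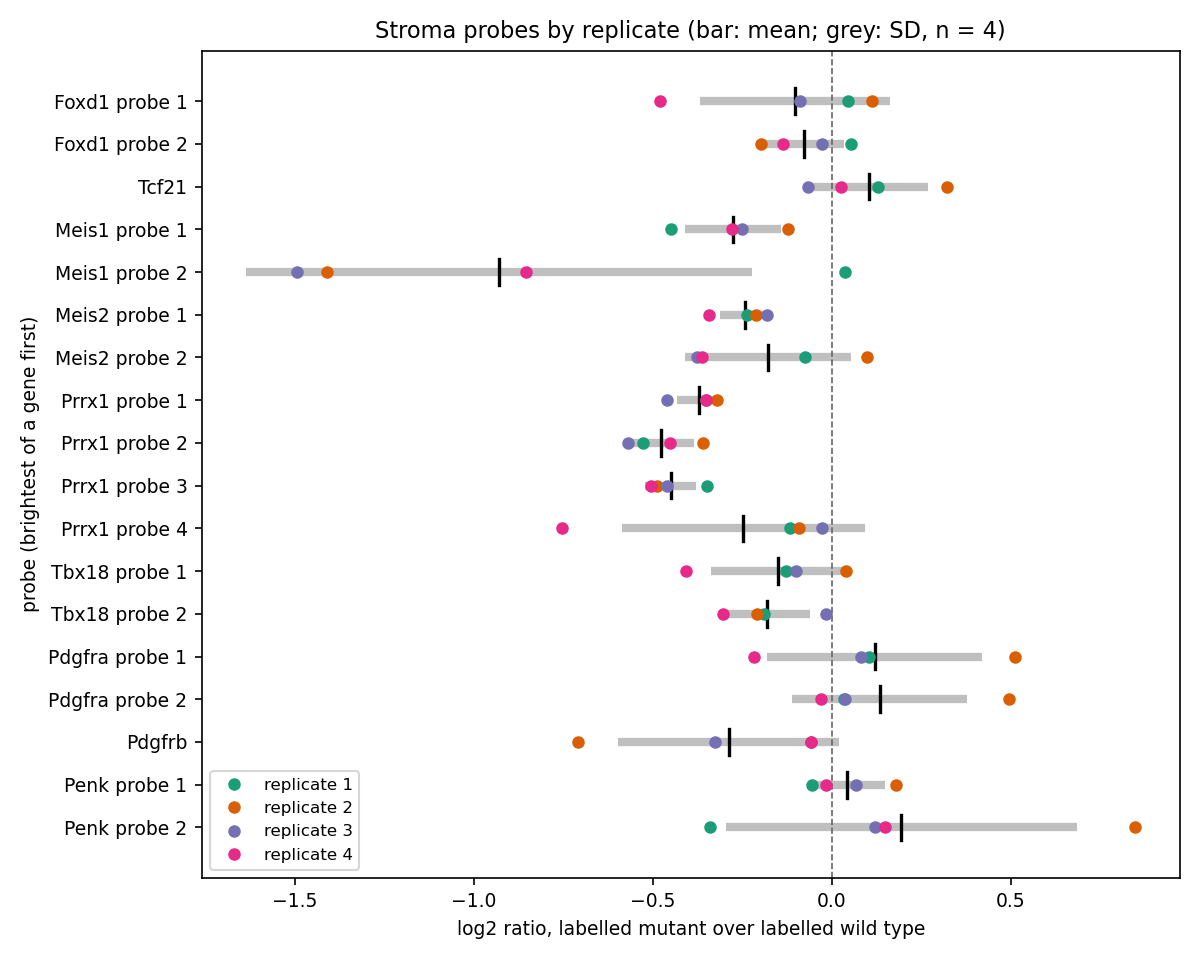
Log2 ratio of the labelled mutant over the labelled wild type (x axis) for each of the 18 stroma probes (y axis), with the probes of a gene numbered by brightness. Coloured points are the 4 replicates, the black bar is their mean and the grey band its SD. Prrx1 probes 1 to 3 cluster between -0.57 and -0.32, while Foxd1, Tcf21, Pdgfra and Penk scatter around 0.

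Prrx1, a homeobox factor of limb, head and body mesenchyme, had the lowest p among the stroma genes. Its promoter window as held by RefSeq for GRCm38.p6, 250 bases before to 50 after the annotated start on the minus strand at chr1:163313601-163313900, is shown for that reason. Capitals mark TAATTA, the core that Prrx-type homeodomains bind, which reads the same on both strands and begins at position -173 from the start. Among the windows of 7 stroma genes searched, 1 held TAATTA, against 5.29% of 32851 such windows. Whether it is bound was not tested.

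Prrx1: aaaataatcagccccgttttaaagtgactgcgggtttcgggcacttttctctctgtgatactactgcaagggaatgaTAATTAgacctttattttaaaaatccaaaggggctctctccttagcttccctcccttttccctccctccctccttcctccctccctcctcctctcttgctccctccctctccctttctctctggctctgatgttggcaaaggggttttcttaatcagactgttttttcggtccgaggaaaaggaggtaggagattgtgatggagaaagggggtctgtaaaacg

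The 4 probes of Prrx1 are given from the brightest down. Probe 1 (A_51_P209778, accession NM_001025570) stood at -0.35, -0.32, -0.46 and -0.35 in replicates 1 to 4. All replicates lay below 0, on 8 of 8 arrays, with a mean of -0.37 ± 0.06 (SD, n = 4; 1.29-fold). Limma gave p = 0.0061 and an adjusted p of 0.57, and the exact sign-flip permutation p was 0.125, the smallest that 4 replicates allow.

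Probe 2 of Prrx1 (A_51_P209771, NM_175686) stood at -0.53, -0.36, -0.57 and -0.45, again below 0 on 8 of 8 arrays. Its processed signals were 1920, 1650, 1780 and 1810 for the labelled mutant and 2770, 2120, 2640 and 2480 for the labelled wild type. These signals also carry the brightness of each array. The mean ratio was -0.48 ± 0.09 (SD, n = 4; 1.39-fold), and limma's adjusted p was 0.407 (0.00216 unadjusted).

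Probe 3 of Prrx1 (A_52_P483713, NM_001025570) stood at -0.35, -0.49, -0.46 and -0.50 (mean -0.45 ± 0.07, SD, n = 4; limma's adjusted p = 0.429). Its signals were 1730, 1260, 1630 and 1630 in the RNA labelled mutant and 2200, 1770, 2250 and 2320 in the RNA labelled wild type. These 3 probes, annotated to 2 transcripts of the gene, shared a sign and a like size. The 95% intervals of their means reached from -0.70 at the lowest to -0.15 at the highest.

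Prrx1 probe 4 (A_52_P335587, NM_175686) was dim, with signals of 33.3 to 99 and well above background on 7 of 8 arrays in each channel. It stood at -0.12, -0.09, -0.03 and -0.75, so that a mean of -0.25 ± 0.34 (SD, n = 4; limma's adjusted p = 0.757) rests mainly on replicate 4. Without that replicate the mean was -0.08. All 4 Prrx1 probes kept their sign under every alternative processing in which they were measured. With array weights in limma, probes 1 to 3 passed the adjusted threshold, at 0.0392, 0.0177 and 0.0312. Replicate 2 had the lowest weight there, at 0.18, and replicate 3 the highest, at 4.07, against 1.19 and 1.15 for replicates 1 and 4. In that fit 462 of all probes passed. Without replicate 3 and without weights, probes 1 to 3 averaged -0.34, -0.45 and -0.45, with limma's adjusted p at 0.902 for each.

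Meis1 and Meis2 are homeobox factors of the TALE class that mark much of the renal stroma and act with Pbx partners. Meis1 probe 1 (A_52_P26195, NM_010789) stood at -0.45, -0.12, -0.25 and -0.28 in replicates 1 to 4. Every replicate lay below 0, and 7 of 8 arrays did. The mean was -0.28 ± 0.13 (SD, n = 4; 1.21-fold). In limma p was 0.0322 before and 0.757 after adjustment.

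The second Meis1 probe (A_52_P670612), which carries the same accession, did not give the same picture. It stood at 0.04, -1.41, -1.50 and -0.85, with signals of 1320, 865, 836 and 630 in the RNA labelled mutant and 1290, 2300, 2360 and 1140 in the RNA labelled wild type. Replicate 1 was level while the others were far below 0. The exception held on both arrays of replicate 1, at 0.01 and 0.07, and the arrays of replicate 2 read -2.12 and -0.70. The mean was -0.93 ± 0.71 (SD, n = 4), or -1.25 without replicate 1. In limma p was 0.0126 before and 0.693 after adjustment. Within slide 2, which held replicates 3 and 4, it passed the adjusted threshold at -1.17 (limma's adjusted p = 0.0397, where 452 of all probes passed).

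Meis2 probe 1 (A_52_P277641, NM_010825) stood at -0.24, -0.21, -0.18 and -0.34, below 0 on 8 of 8 arrays. Its mean was -0.24 ± 0.07 (SD, n = 4; 1.18-fold), and limma's adjusted p was 0.757 (0.0363 unadjusted). The other Meis2 probe (A_51_P422429) stood at -0.07, 0.10, -0.38 and -0.36 (mean -0.18 ± 0.23, SD, n = 4; adjusted p = 0.757), low within slide 2 and near 0 within slide 1. Both Meis2 probes turned above 0, to 0.10 and 0.22, when normexp background correction and centring of each array on its median replaced the scanner ratio, whereas both Meis1 probes stayed below 0 there, at -0.03 and -0.58. Centring the scanner ratio itself on the median left the Meis2 probes at -0.27 and -0.20.

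**Figure D2:**
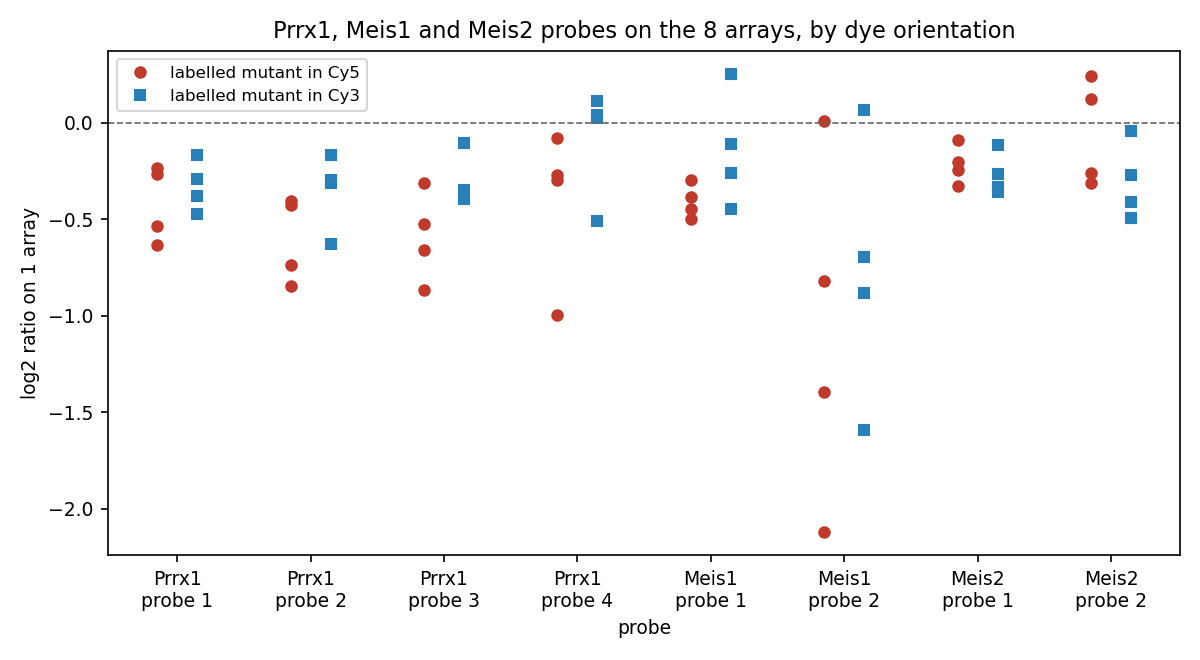
Log2 ratio on each single array (y axis) for the probes of Prrx1, Meis1 and Meis2 (x axis, numbered by brightness), with red circles for the labelled mutant in Cy5 and blue squares for the labelled mutant in Cy3. Prrx1 probes 1 to 3 and Meis2 probe 1 lie below 0 on all 8 arrays, and Meis1 probe 2 runs from -2.12 to 0.07.

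Averaged over replicates, dye orientation moved the size of these ratios and not their sign, while on single arrays the sign changed for some probes. With the labelled mutant in Cy5, Prrx1 probes 1 to 3 averaged -0.42, -0.60 and -0.59, and with it in Cy3 they averaged -0.33, -0.35 and -0.31. Meis1 probe 1 averaged -0.41 and -0.14 in the same order. Meis2 probe 1, at -0.22 and -0.27, differed least. Prrx1 probe 4 averaged -0.41 and -0.08, and with the labelled mutant in Cy3 it read 0.04, 0.11 and 0.02 in replicates 1 to 3. Meis2 probe 2 averaged -0.05 and -0.31, and with the labelled mutant in Cy5 it read 0.12 and 0.24 in replicates 1 and 2. In replicate 2, Meis1 probe 1 read -0.50 with the labelled mutant in Cy5 and 0.25 with it in Cy3.

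Foxd1, the factor that defines the cortical stroma, did not differ beyond the spread between replicates. Probe 1 (A_51_P237783, NM_008242) stood at 0.05, 0.11, -0.09 and -0.48 (mean -0.10 ± 0.26, SD, n = 4; limma's adjusted p = 0.768), and its 95% interval ran from -0.42 to 0.21. Replicates 1 and 2 lay above 0 and the others below it, which gave 0.08 within slide 1 and -0.28 within slide 2. Without replicate 4 the mean was 0.02. Probe 2 (A_52_P128134) stood at 0.05, -0.20, -0.03 and -0.14 (mean -0.08 ± 0.11, interval -0.31 to 0.16). Both Foxd1 probes turned above 0 with normexp and median centring, at 0.22 and 0.30, and stayed below it, at -0.13 and -0.10, when the scanner ratio was centred.

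Tcf21, a helix-loop-helix factor of stroma and of podocyte precursors, had 1 probe (A_51_P459944, NM_011545). It stood at 0.13, 0.32, -0.07 and 0.03, a mean of 0.10 ± 0.17 (SD, n = 4; interval -0.15 to 0.36; limma's adjusted p = 0.758). Replicate 2 was the highest, and without it the mean was 0.03. Both probes of Tbx18, the factor of the ureteric mesenchyme, averaged below 0. Probe 1 (A_51_P438711, NM_023814) stood at -0.13, 0.04, -0.10 and -0.41 (mean -0.15 ± 0.19) and probe 2 (A_52_P279263) at -0.19, -0.21, -0.02 and -0.30 (mean -0.18 ± 0.12), with limma's adjusted p at 0.757 for both. Their signs were not stable, since probe 1 turned to 0.0083 with normexp and median centring (-0.18 with the scanner ratio centred) and probe 2 to 0.05 when only the dye orientation with the mutant in Cy3 was used.

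Pdgfra, the receptor of interstitial fibroblasts, and Pdgfrb, the receptor of pericytes and smooth muscle, had means of opposite sign, and neither passed. Pdgfrb (A_51_P150964, NM_008809) stood at -0.06, -0.71, -0.33 and -0.06 (mean -0.29 ± 0.31, SD, n = 4; limma's adjusted p = 0.757). Every replicate lay below 0, yet replicate 2 carried much of the mean, which was -0.15 without it. With normexp and median centring it stood at 0.15, and with the scanner ratio centred at -0.31.

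Pdgfra probe 1 (A_51_P345649, NM_011058) is printed as 10 spots on each array, which allows the error within an array to be seen. It stood at 0.10, 0.51, 0.08 and -0.22 (mean 0.12 ± 0.30, SD, n = 4; limma's adjusted p = 0.76). Over the repeated spots of an array the SD ranged from 0.0188 to 0.348, after 10 of 80 spots marked as outliers were left out. The widest spread was on the replicate 2 array with the labelled mutant in Cy5, where spots of this probe ran from -0.04 to 1.09. In replicate 4 both arrays averaged -0.22, below those of the other replicates. Pdgfra probe 2 (A_52_P264283) stood at 0.03, 0.50, 0.04 and -0.03 (mean 0.13 ± 0.24, adjusted p = 0.757). Both were near 0 without replicate 2, at -0.01 and 0.01.

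Penk, which encodes the precursor of enkephalin peptides and marks medullary stroma, did not differ beyond the replicate spread. Probe 1 (A_51_P102987, NM_001002927) stood at -0.06, 0.18, 0.07 and -0.02 (mean 0.04 ± 0.10, SD, n = 4; interval -0.19 to 0.28; limma's adjusted p = 0.856). Probe 2 (A_52_P286166) ranged from -0.34 in replicate 1 to 0.85 in replicate 2, with 0.12 and 0.15 in the others (mean 0.19 ± 0.49, adjusted p = 0.758).

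The promoter windows of 7 of the 9 genes were searched for TGACAG on both strands, the core that Meis factors bind, because Meis1 and Meis2 are themselves among the genes. It was found in 3 of 7, in the windows of Foxd1, Tbx18 and Pdgfra, against 19.2% of 32851 windows of the same length. These 30-base stretches hold it, in capitals, at chr13:98354183-98354212 on the plus strand for Foxd1, chr9:87731225-87731254 on the minus strand for Tbx18 and chr5:75152236-75152265 on the plus strand for Pdgfra (RefSeq, GRCm38.p6).
Foxd1: gtgcacaccatgTGACAGgcccccttctgc
Tbx18: gccttgaagtgcTGACAGatcaaggcaaca
Pdgfra: gacttcatttccTGACAGctatttacttta
The match begins at position -50 in Foxd1, at 19 in Tbx18 and at -3 in Pdgfra, counted from the annotated start. None of these genes was among those at an unadjusted p under 0.05. A match is a run of letters and was not tested as a binding site.

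Taking the brightest probe of each gene, the 9 stroma genes had a median of -0.15, with 6 below 0 and 3 above, against a median of 0.04 over all named genes. Of 17114 named genes, 7123 lay below 0 and 9991 above. The median of the stroma genes was -0.06, 0.04, -0.10 and -0.28 in replicates 1 to 4, lowest in replicate 4 and above 0 in replicate 2. By this count 3 of 9 genes were lower at an unadjusted p under 0.05, against 1.95% of named genes. Without replicate 4 the median was -0.06, and it was -0.04 within slide 1 and -0.25 within slide 2. Its sign depends on the processing, since it turned to 0.15 with normexp and median centring, while it was -0.18 with the scanner ratio centred on each array's median. The 6 transcription factors had a median of -0.20 and the 2 receptors -0.08.

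Other genes of stroma and mural cells lay on both sides of 0. The 4 PDGF ligands, counted with them here though not chosen as stroma genes, were all above it. None of the 73 measured genes in the lists of stromal factors, stromal signals, fibroblast matrix, mural cells and PDGF ligands passed the adjusted threshold (0.0175% of named genes passed), and their median was 0.01. At an unadjusted p under 0.05, 8 were higher and 4 lower, where 4.14% and 1.95% of named genes were. Of these 8, 2 were PDGF ligands. With normexp and median centring the medians of the factors, signals, matrix and mural lists stood at 0.22, 0.14, 0.125 and 0.14, beside 0.08 for all named genes. With the scanner ratio centred they were -0.0386, -0.0401, -0.0257 and -0.0117, beside 0.0098 for all named genes.

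Among 21 other transcription factors of renal or ureteric mesenchyme, 10 were above 0 and 11 below (median -0.01). Without replicate 2 the counts were 8 and 13 (median -0.07), and with array weights they were also 8 and 13 (median -0.11). Tbx3, a T-box factor, stood at 0.39 ± 0.14 (SD, n = 4; limma's adjusted p = 0.616) and Twist2, a helix-loop-helix factor of mesenchyme, at 0.35 ± 0.09 (0.631). Meis3, the third Meis gene, stood at -0.46, -0.25, -0.28 and -0.0024 in replicates 1 to 4 (mean -0.25 ± 0.19, limma's adjusted p = 0.757), so that replicate 4 was level. Of the 21 factors, 2 lay above 0 in 4 of 4 replicates and 4 lay below it. Among 17114 named genes, 2233 and 954 did so.

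Of 19 stromal signals, 9 were above 0 and 10 below (median -0.01). Without replicate 2 the counts were 10 and 9 (median 0.0048), and with array weights 7 and 12 (median -0.03). The chemokine Cxcl12 stood at -0.30 ± 0.07 (SD, n = 4; limma's adjusted p = 0.716), though its other probe stood at 0.12. Ecm1, a secreted matrix protein of the stroma, stood at -0.31 ± 0.12 (adjusted p = 0.726). Ntn1, the guidance cue netrin-1, stood at 0.55 ± 0.43 with another probe at -0.34.

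Of 17 fibroblast matrix genes, 9 were above 0 and 8 below. That split rests on replicate 2, since without it 5 were above and 12 below, with a median of -0.11, and with array weights the counts were also 5 and 12. Thy1, a surface protein of fibroblasts and neurons, stood at 0.61 ± 0.13 (SD, n = 4; limma's adjusted p = 0.265) with another probe at 0.14, and the matrix protein Postn at 0.51 ± 0.24 (0.565). Col1a1, the main fibrillar collagen chain, stood at -0.29 ± 0.10, with its 3 probes ranging from -0.29 to 0.10.

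Mural cells, which share Pdgfrb, had a median of 0.01 over 12 genes, with 0 genes at an unadjusted p under 0.05. The mural median was -0.03 without replicate 2 and -0.04 with array weights. Cnn1, a calponin of smooth muscle, stood at 0.16 ± 0.20, Tagln, an actin-binding protein of smooth muscle, at -0.24 ± 0.43 with another probe at 0.26, and Des, the filament protein desmin, at -0.23 ± 0.44. The 4 PDGF ligands were all above 0 (median 0.23), as were 9991 of 17114 named genes. Pdgfc, a ligand of Pdgfra, stood at 0.08, 1.00, 0.37 and 0.30 in replicates 1 to 4 (mean 0.44 ± 0.40, adjusted p = 0.757) and Pdgfa at 0.35, 0.09, 0.20 and 0.57 (mean 0.30 ± 0.21, adjusted p = 0.757). Pdgfb, a ligand of both receptors, stood at 0.16 ± 0.25 with another probe at -0.053. Without replicate 2 the median of the ligands was 0.15.

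**Figure D3:**
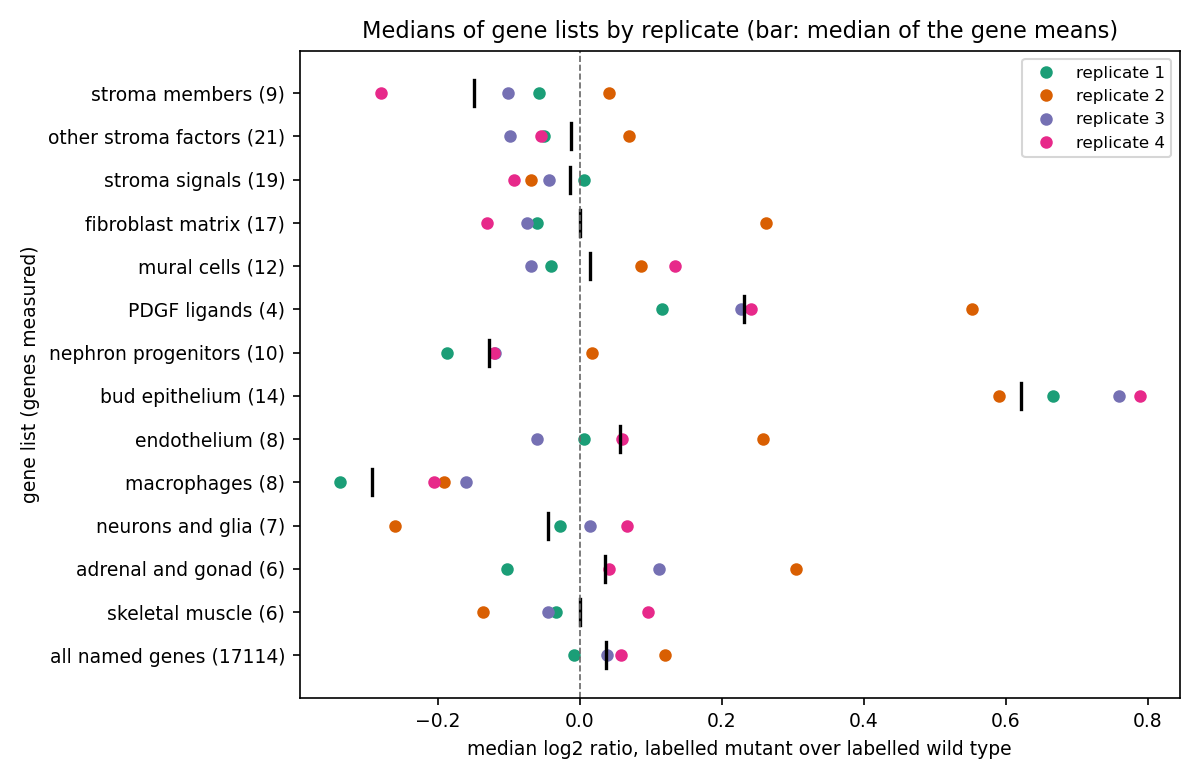
Median log2 ratio of the labelled mutant over the labelled wild type (x axis) for each gene list (y axis, with the number of genes measured), in each replicate (coloured points) and for the gene means (black bar). The stroma genes lie at -0.15, the bud epithelium at 0.62, the PDGF ligands at 0.23, and the lists of other stromal factors, signals, matrix and mural cells between -0.01 and 0.01.

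Markers of other cell types were measured in the same RNA, and their part in the values of the stroma genes was not tested. Of 14 bud epithelium genes, 11 were higher at an unadjusted p under 0.05 and above 0 in 4 of 4 replicates (median 0.62, from 0.59 in replicate 2 to 0.79 in replicate 4), where 4.14% and 13% of named genes were so, with 0 past the adjusted threshold. Without replicate 2 all 14 were above 0, with a median of 0.70. The bud list was chosen with earlier results of these data known, so these counts are no independent test. Tfcp2l1, a factor of the collecting duct, stood at 1.13 ± 0.08 (SD, n = 4; limma's adjusted p = 0.0576), with its 3 probes ranging from 0.21 to 1.13, and Elf5, an epithelial factor, at 1.29 ± 0.18 (0.0637). In each replicate the median of the bud list lay above that of the stroma genes. Nephron progenitor genes had a median of -0.13, with 9 of 10 below 0, where 7123 of 17114 named genes were. This progenitor median turned to 0.16 with normexp and median centring (-0.15 with the scanner ratio centred). Wt1, a factor of progenitors and podocytes, stood at -0.29 ± 0.12, and Eya1, a factor of the progenitors, at -0.24 ± 0.26.

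Macrophage genes had a median of -0.29, with 6 of 8 below 0, where 7123 of 17114 named genes were. C1qa, a complement subunit, stood at -0.37 ± 0.14, and Ptprc, found on all leukocytes, at 0.53 ± 0.40 with its probes ranging from -0.67 to 0.53. Neuronal and glial genes had a median of -0.05 over 7 genes, although Stmn2, a neuronal microtubule regulator, stood at -0.71 ± 0.33 (SD, n = 4; limma's adjusted p = 0.444) and the receptor Ngfr at -0.50 ± 0.28 (0.627). Endothelial genes had a median of 0.06 over 8 genes, or -0.0097 without replicate 2, with the angiopoietin receptor Tek at 0.50 ± 0.46 and the VEGF receptor Kdr at -0.18 ± 0.14. The 6 adrenal and gonadal genes had a median of 0.04 (Amh at 0.39 ± 0.28, Nr5a1 at -0.14 ± 0.36). Skeletal muscle genes, also 6, had a median of 0.00 (Myod1 at -0.16 ± 0.18, Myh3 at 0.09 ± 0.15, with another probe at 0.38).

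**Figure D4:**
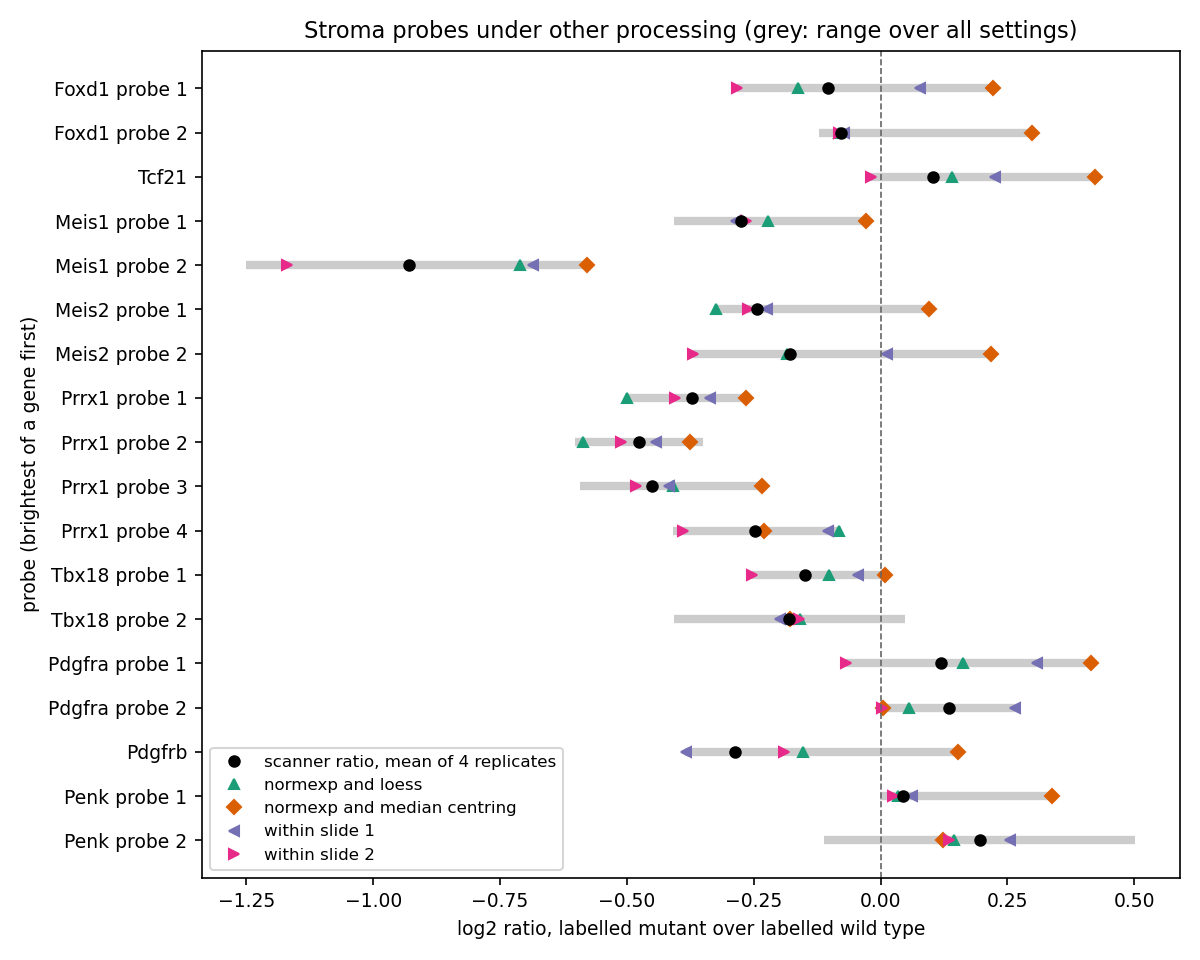
Mean log2 ratio of each stroma probe (y axis) under the scanner ratio (black circles), normexp with loess (green), normexp with median centring (orange) and within each slide (violet and pink), with the grey band spanning all alternatives. Prrx1 and Meis1 probes stay below 0 throughout, while the Meis2, Foxd1 and Pdgfrb means turn above 0 with normexp and median centring.

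Background correction by normexp with loess in place of the scanner ratio left Prrx1 probes 1 to 3 at -0.50, -0.59 and -0.41 and Meis1 probe 1 at -0.22. With normexp and median centring they stood at -0.27, -0.38 and -0.23, and at -0.03. Slides 1 and 2 gave like values for Prrx1 probe 2, at -0.44 and -0.51, and for Meis1 probe 1, at -0.28 and -0.26. The slides lay further apart for Meis1 probe 2, at -0.69 and -1.17, and for Prrx1 probe 4, at -0.10 and -0.39. For Foxd1 probe 1, Tcf21, Pdgfra probe 1 and Meis2 probe 2 (0.01 and -0.37) the 2 slides differed in sign.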

How the data were processed

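Each of the 8 arrays held 45018 spots, 1639 of them controls, and was extracted with Agilent Feature Extraction 10.5.1.1, per the file headers. Per the file headers, the deposited log ratio is a log10 value, red (Cy5) divided by green (Cy3), and was put on the log2 scale here. Among the deposited intensity columns, per the file headers, the medians of spots and local background are unnormalized, and the scanner software had removed background and dye effects from the processed signals. The deposited flags are 0 or 1, a unit of their own. The authors' deposited table holds 1 log2 ratio for each of 496 entries.

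Control spots and spots flagged as outliers (151 to 573 per array) were left out, spots of a probe were averaged, ratios were turned to labelled mutant over labelled wild type, and the 2 dye orientations of a replicate were averaged. Probes had to be well above background in 1 or both channels on 4 or more arrays, with values in at least 3 replicates. Symbols came from matching accessions to RefSeq's GRCm38.p6 table, which served for names and promoter windows only, since the array design cites another build, and 62.7% of kept probes were named. The probe of highest mean log2 signal stood for its gene in gene lists. Replicate ratios were tested against 0 with lmFit and eBayes of limma 3.58.1 in R 4.3.3, two-sided, with Benjamini-Hochberg adjustment over all 39520 probes. The test was also run on simulated normal noise with each probe's SD, drawn independently for probes and replicates. That noise had no wider spread in replicate 2 and no slide effect, so the check does not cover these. The number of arrays limits the precision. Alternatives changed the background correction, the normalization, the filter, the outlier spots, the weighing of arrays, the slide, the dye orientation and the replicates.

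The ratio keeps the pairing of mutant and wild type by array. In separate channels the deviations of paired RNAs from their group means correlated at 0.577 to 0.781 across probes, above every other pairing. Pairs share their arrays, so this is a pairing by hybridisation. Every probe of the 9 genes is reported. From each other list, genes past the adjusted threshold were to be named, and otherwise up to 3 genes of smallest p, or 2 for other cell types. The 9 genes and the lists were chosen with earlier results of these data known.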

Additional observations from a re-analysis of the deposited data

Results flagged for a closer look

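Among the 18 stroma probes, each with 4 replicate ratios, 2 had a replicate far from the other 3, where chance alone flags about 1 in 20. Prrx1 probe 4 (A_52_P335587) stood at -0.75 in replicate 4 against -0.12, -0.09 and -0.03 in the others, a gap of 0.876 of the whole range. Its signal in the RNA labelled wild type was 99 in that replicate and 35.5 to 80.4 in the others. Pdgfra probe 2 (A_52_P264283) stood at 0.50 in replicate 2 against -0.03 to 0.04 in the others, a gap of 0.873 of the range. Pdgfra probe 1 was also highest in replicate 2, at 0.51.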

How the results depend on the processing

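None of the 18 stroma probes passed the adjusted threshold except with array weights, where 3 did, and within slide 2, where 1 did. At an unadjusted p under 0.05 and 1.4-fold, 1 stroma probe passed. Over all probes 7 passed. The count was 1 with normexp and loess at either offset, 1 with the slide as a block, 1 with the labelled mutant in Cy5 only, 2 with no filter, 13 with the strict filter, 17 with normexp and median centring, 36 with the labelled mutant in Cy3 only, 0 within slide 1, 452 within slide 2, 462 with array weights, and 837 at an unadjusted p under 0.05 and 1.4-fold. With all 8 arrays and the replicate block (consensus correlation 0.299) it was 133, with 0 stroma probes called. The block changed no other call among the stroma probes. Leaving out 1 replicate each gave 0 to 10, and 0 stroma probes in each case. The number of stroma probes lower at an unadjusted p under 0.05, a count chosen after seeing the data, was 6. It was 2 with normexp and median centring, where 1.56% of all probes were lower, 0 within slide 1 (0.917%) and 3 to 7 with 1 replicate left out (1.17% to 4.1%).

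The median of the 9 genes, -0.15, turned to 0.15 with normexp and median centring, and was -0.17 to -0.06 with 1 replicate left out. Also turned by normexp and median centring were Foxd1 probe 1 (to 0.22), Foxd1 probe 2 (0.30), Meis2 probe 1 (0.10), Meis2 probe 2 (0.22), Tbx18 probe 1 (0.0083) and Pdgfrb (0.15), none of which turned with the scanner ratio centred. Within slide 1, Foxd1 probe 1 turned to 0.0784 and Meis2 probe 2 to 0.0128. Within slide 2, Tcf21 turned to -0.0191 and Pdgfra probe 1 to -0.068. Tcf21 also turned to -0.0033 with array weights and to -0.00031 with the labelled mutant in Cy5 only, where Penk probe 2 stood at -0.11. Tbx18 probe 2 turned to 0.0483 with the labelled mutant in Cy3 only. With 1 replicate left out, Foxd1 probe 1 ranged from -0.17 to 0.0228, Pdgfra probe 1 from -0.011 to 0.23, Penk probe 1 from -0.0018 to 0.077 and Penk probe 2 from -0.023 to 0.37. The cause of these changes was not tested. The strict filter removed Prrx1 probe 4.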
